A study of Mus musculus with 4 samples.

Results

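The genes examined here encode the secreted and membrane-bound proteases that cut the extracellular matrix, namely the matrix metalloproteases (Mmp genes) and the ADAMTS proteases, together with the TIMP proteins that inhibit them. Members were the rows of the deposited expression table whose gene symbol is Mmp with a number and an optional letter, Adamts with a number, or Timp with a number, and nothing more. This rule gave 44 of 22369 rows, comprising 22 Mmp, 18 Adamts and 4 Timp genes. RNA sequencing had been done on OG2MEF cells, mouse embryonic fibroblasts that carry a fluorescent reporter of Oct4, after 9 days of reprogramming. The libraries were 2 labelled SOX17-V118M, a missense form of the endodermal transcription factor SOX17, and 2 labelled wild-type SOX17. Per the labels, all cells came from a protocol of repeated retroviral delivery of Sox2 and Klf4 with OCT4, SOX17, SOX17-V118M or a green fluorescent protein, and then culture in a stem cell medium that contained LIF and vitamin C. The labels do not state which combination each library received, or whether replicates were separate cultures, so the spread between replicates may be technical.

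As background, matrix metalloproteases are zinc proteases made as inactive precursors that must be cut to become active, and between them they degrade collagens, gelatin, proteoglycans and elastin. ADAMTS proteases share the zinc-dependent catalytic domain, carry thrombospondin repeats, and process procollagens or cleave large proteoglycans such as aggrecan and versican. TIMPs bind the catalytic site and block it. Fibroblasts are a main source of all 3 groups, and fibroblast identity is lost during reprogramming.

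The values are quantile-normalized scores without a unit, in which every library has nearly the same total, from 12855482 to 12859613, so depth is unknown. Sox17 itself was at 3016 and 2396 in V118M and at 3484 and 2880 in wild type. Of the other factors named in the protocol, Sox2 was at 4 and 2 in V118M and at 2 in both wild-type libraries. Klf4 was at 29444 and 17589 in V118M and at 29444 in both wild-type libraries. Pou5f1, the gene of OCT4, was at 61186 in every library. Which factors each library had received was not tested. All 10 fibroblast markers were present in every library, at 248 or above, and 5 were higher and 4 lower in V118M. Their summed score was 116279 and 80497 in V118M and 117091 and 112319 in wild type. It mostly follows Col3a1, which was at 61186 and 29496 in V118M and at 61186 in both wild-type libraries. The score of 61186 is the highest of the scale, shared by 10 genes in each library. The size of the Col3a1 difference thus depends on ranks. V118M replicate 2 stood apart, with Pearson correlations of 0.954 to 0.964 with the other libraries against 0.986 to 0.990 among those. Its deviation from the other libraries was lower for genes with longer transcripts (Spearman's rho -0.41 across 19503 genes, as a description). A lower score in these bulk samples could reflect fewer cells of a type or less RNA per cell, which cannot be told apart.

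Members spanned the whole scale. Mean scores over the 4 libraries were at least 1000 for 5 members, from 100 to under 1000 for 14, from 10 to under 100 for 14 and under 10 for 11. The filter on low values, a score of at least 1 in at least 2 libraries, was passed by 42 of the 44, and Mmp8 and Mmp27 did not pass. Whether the scores already allow for transcript length is not stated. Scores per kilobase of transcript are given here, which assumes that they do not. The 3 highest members per kilobase were the inhibitors Timp3, Timp1 and Timp2. Their mean scores per kilobase were 3312, 3328 and 1666 in V118M and 3730, 2273 and 1777 in wild type. The gelatinase gene Mmp2 followed, at 1173 in V118M and 1133 in wild type, and then the membrane-type protease gene Mmp14, at 744 in V118M and 688 in wild type. Among the ADAMTS genes, Adamts1 and Adamts2 had the highest scores per kilobase, at 146 and 135 in V118M and 168 and 122 in wild type. By mean score alone the order was Timp3 (16627), Timp2 (6384.75), Mmp2 (3548.5), Timp1 (2473.25) and Mmp14 (2319). In both groups, Timp1, Timp2, Timp3 and a pair of fibroblast collagen- and gelatin-degrading enzymes made up the top of the list either way.

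The libraries allow V118M to be set against wild-type SOX17, here for the genes of matrix proteolysis. No member passed an adjusted p of 0.05 in limma with Benjamini-Hochberg adjustment over 19547 genes, the same as for all genes tested (0 called, 0%), and the lowest adjusted p of a member was 0.827. At an unadjusted p under 0.05 there were 5 members, Mmp3, Adamts5 and Timp4 higher in V118M and Adamts15 and Mmp25 lower, out of 42 tested. The same rule called 784 of all 19547 genes tested, or 4.01%, with 2.31% higher and 1.70% lower in V118M. The scores of the groups did not overlap in 19 tested members, 10 higher and 9 lower in V118M, against 28.0% of all genes tested (13.2% higher and 14.8% lower). With a mean score of at least 10 the count was 17 of 33 members, against 31.1% of such genes in the whole table. The median log2 fold change, V118M minus wild type on the log2(score + 1) scale, was -0.13 over the tested members and 0.00 over all genes tested. By family it was -0.09 for the Mmp, -0.14 for the Adamts and 0.22 for the Timp genes. Leaving out Mmp25 and Timp4, each listed at 0 in one group, the Mmp median was 0.01 and the Timp median -0.10. Without V118M replicate 2 the median was 0.02 over the members, 0.02 for the Mmp, 0.05 for the Adamts and 0.02 for the Timp genes. Timp4 failed the filter in that fit, so this Timp median is over 3 genes and is to be set beside -0.10.

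**Figure D1:**
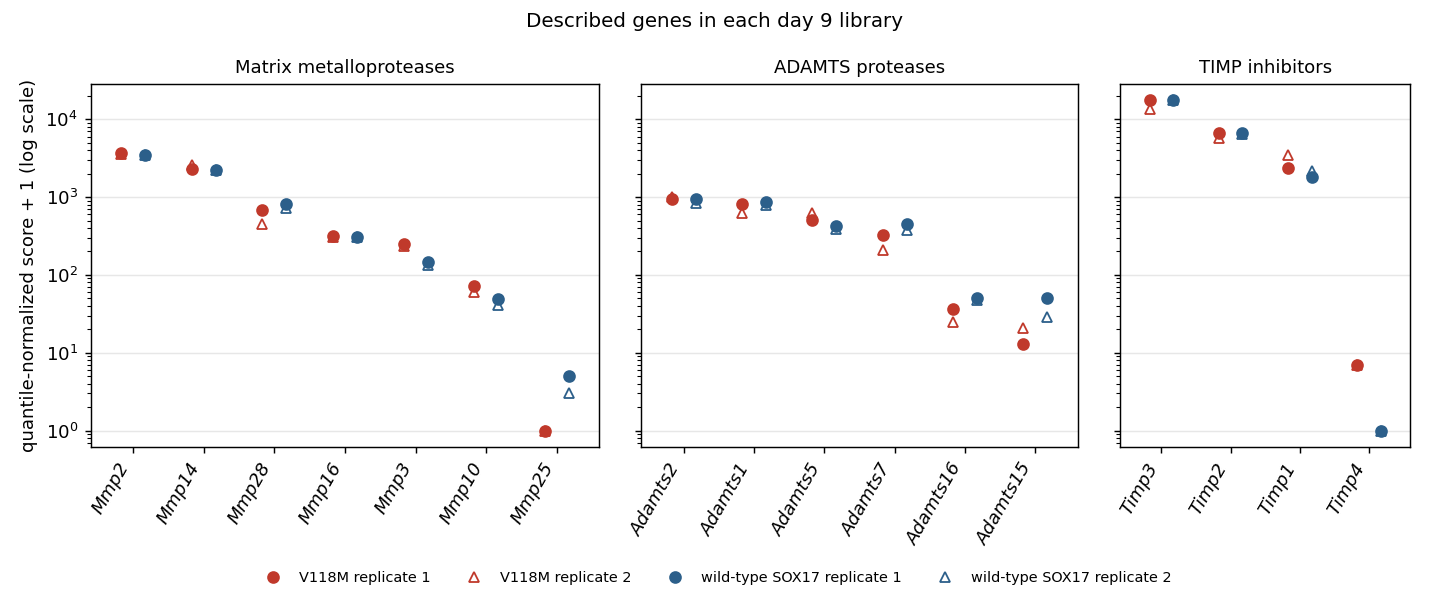
Scores + 1 on a log axis of the 17 genes described with values in every library, by family, with the V118M libraries (red) left of the wild-type libraries (blue). Filled circles are replicate 1 and open triangles replicate 2. V118M lies above wild type for Mmp3, Mmp10, Adamts5, Timp1 and Timp4, and by little for Mmp2, Mmp14, Mmp16 and Adamts2. It lies below wild type for Mmp28, Mmp25, Adamts7, Adamts15 and Adamts16. The groups overlap for Adamts1, Timp2 and Timp3.

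Stromelysin-1 and stromelysin-2 cut proteoglycans and fibronectin and activate other precursors of the family. The scores of their genes, Mmp3 and Mmp10, were higher in V118M without overlap, and neither passed the adjusted threshold. Mmp3, which encodes stromelysin-1 (chromosome 9, 7445822 to 7455975), was at 247 and 237 in V118M and at 146 and 132 in wild type. Both V118M libraries lay far above both wild-type libraries, and the replicates of each group were close to each other. The log2 fold change, with the standard error of the fit (SE), was 0.80 (SE 0.18, limma adjusted p = 0.951). It ranged from 0.72 to 0.87 when each library was left out in turn and was 0.69 with the trend on transcript length removed. Mmp10, which encodes stromelysin-2 (chromosome 9, 7502352 to 7510240), was at 72 and 60 in V118M and at 48 and 40 in wild type, again without overlap. The log2 fold change of Mmp10 was 0.57 (SE 0.27, limma adjusted p = 0.951). The smaller matrilysin gene Mmp7 had scores of 1 and 2 in V118M and 1 and 6 in wild type, at the bottom of the scale. The longest coding transcripts of Mmp3 and Mmp10 were identical at 75.6% of 1715 aligned bases, with a longest shared run of 104 bases, so reads from such runs could have been assigned to either gene.

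Keratinocytes are another possible source of stromelysins. The summed score of 6 of their markers was also higher in V118M, at 14492 and 18780, against 10709 and 10246 in wild type. Of the 6, 5 were higher without overlap, against 13.2% of all genes tested. The other marker, Trp63, overlapped, at 112 and 92 in V118M and at 105 and 107 in wild type. The part of keratinocytes in the Mmp3 and Mmp10 differences was not tested. Among the 10 fibroblast markers, Postn, Twist2 and Pdgfra were higher and Fbln2 lower without overlap, and the other 6 overlapped.

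The start regions of Mmp3 and Mmp10 are shown because both genes were higher in V118M without overlap, beside those of Mmp13, a cluster neighbour whose groups overlapped, and Timp1, an inhibitor that was also higher. Each sequence runs 5′ to 3′ on the gene's strand from 250 bases before to 50 after the start (RefSeq, GRCm38.p6). Capitals mark matches to the AP-1 motif TGANTCA, the site of FOS and JUN dimers, or to the PEA3 motif AGGAAG of ETS factors, each searched on both strands. The regions are chr9:7445572-7445871 for Mmp3, chr9:7502092-7502391 for Mmp10 and chr9:7272264-7272563 for Mmp13, all on the plus strand, and chrX:20869916-20870215 for Timp1, also on the plus strand.
Mmp3: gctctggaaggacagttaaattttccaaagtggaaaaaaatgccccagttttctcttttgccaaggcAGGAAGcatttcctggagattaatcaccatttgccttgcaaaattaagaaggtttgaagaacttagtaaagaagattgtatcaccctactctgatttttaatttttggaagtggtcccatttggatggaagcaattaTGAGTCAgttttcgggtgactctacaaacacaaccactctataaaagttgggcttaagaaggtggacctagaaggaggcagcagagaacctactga
Mmp10: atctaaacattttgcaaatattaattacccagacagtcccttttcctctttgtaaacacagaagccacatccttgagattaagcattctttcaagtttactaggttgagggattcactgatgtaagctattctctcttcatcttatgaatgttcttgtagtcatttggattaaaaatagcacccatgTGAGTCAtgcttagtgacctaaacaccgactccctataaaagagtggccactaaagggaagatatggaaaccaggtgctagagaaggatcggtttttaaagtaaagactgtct
Mmp13: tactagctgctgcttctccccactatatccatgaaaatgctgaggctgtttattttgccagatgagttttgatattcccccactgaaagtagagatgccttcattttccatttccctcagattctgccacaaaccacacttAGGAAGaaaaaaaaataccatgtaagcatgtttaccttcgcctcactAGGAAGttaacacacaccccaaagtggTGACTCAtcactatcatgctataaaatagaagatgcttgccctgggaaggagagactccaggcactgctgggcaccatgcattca
Timp1: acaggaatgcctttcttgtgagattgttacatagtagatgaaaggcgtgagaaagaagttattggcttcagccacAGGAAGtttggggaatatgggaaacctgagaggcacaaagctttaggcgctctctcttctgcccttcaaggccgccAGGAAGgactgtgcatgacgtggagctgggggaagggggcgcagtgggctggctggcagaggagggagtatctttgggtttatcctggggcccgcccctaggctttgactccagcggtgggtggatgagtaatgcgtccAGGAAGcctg
The AP-1 match began at position -46 in Mmp3, -63 in Mmp10 and -35 in Mmp13, counted from the start. Timp1 had no exact match to TGANTCA in this window and 3 to AGGAAG. Sites that differ from a motif by a base were not searched. A start region was found for 30 of the 44 members. Of these, 8 held an AP-1 match, against 7.81% of 32851 start regions of the same length, and 14 members held a PEA3 match, against 35.4% of start regions. All 8 with an AP-1 match were genes of the chromosome 9 cluster, Mmp1a, Mmp1b, Mmp3, Mmp7, Mmp10, Mmp12, Mmp13 and Mmp20. All 10 cluster genes had a start region to search, but only 9 of the 18 Adamts genes did. The hexamer CATTGT, a core bound by SOX factors, was in the start regions of 5 members (Mmp1a, Mmp7, Mmp12, Mmp23 and Mmp25), against 12.6% of start regions. A match is a description of the letters only.

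The cluster on chromosome 9 (7272514 to 7699585) holds 10 of the 22 Mmp genes within 427 kilobases. Its genes did not move together. Besides Mmp3 and Mmp10, Mmp20, which encodes enamelysin, a tooth enamel protease, was at 60 and 64 in V118M and at 66 and 90 in wild type, lower without overlap. The other 7 genes had overlapping groups. Mmp13, which encodes collagenase-3, was at 156 and 189 in V118M and at 114 and 186 in wild type. Mmp12, which encodes macrophage elastase, was at 136 and 218 in V118M and at 222 and 194 in wild type. For both genes 1 library differed from its replicate by more than the groups differed. The remaining collagenase genes Mmp1a, Mmp1b and Mmp8 were at 6 or below in all libraries and each was listed at 0 in at least 1 of them. Mmp27 was at 2 in V118M replicate 1 and at 0 elsewhere. Mmp1a is annotated as a polymorphic pseudogene, and the longest transcripts of Mmp1a and Mmp1b were identical at 90.9% of aligned bases, so reads could be split between them. Of the 8 cluster genes with an AP-1 match, 2 were higher without overlap, 1 was lower and 5 overlapped, near the 28.0% without overlap among all genes tested.

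**Figure D2:**
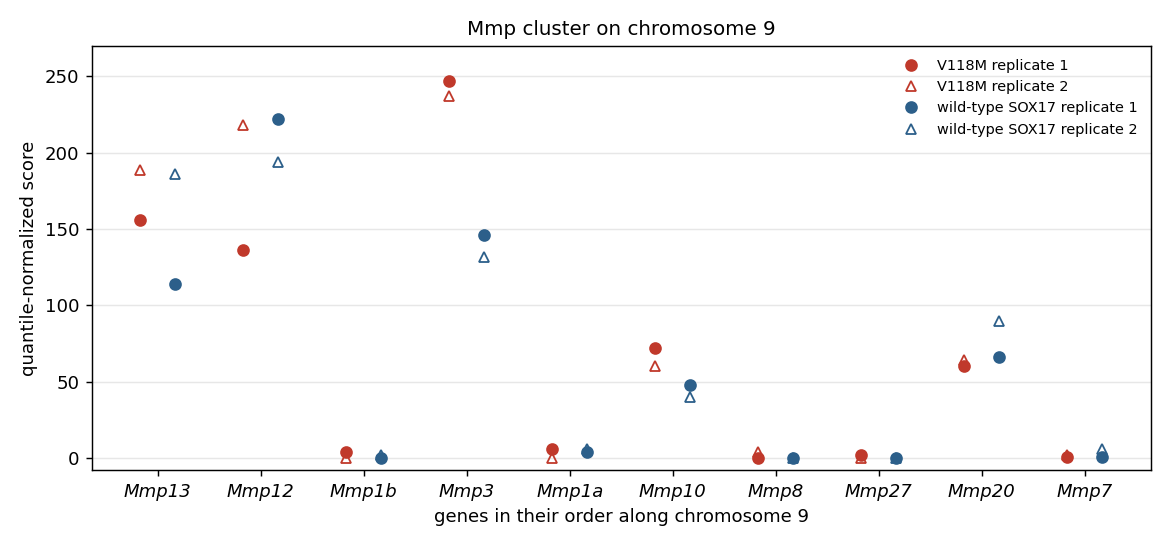
Scores of the 10 Mmp genes in their order along chromosome 9, with the V118M libraries (red) left of the wild-type libraries (blue), filled circles for replicate 1 and open triangles for replicate 2. Mmp3 and Mmp10 are higher in both V118M libraries, Mmp13 and Mmp12 overlap, and 5 of the genes stay at 6 or below.

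Macrophage genes are given beside Mmp12. The 12 markers summed to 612 and 632 in V118M and to 894 and 814 in wild type, with 3 of the 10 tested higher and 7 lower. The 3 higher were Itgam, Fcgr1 and Csf1r. These sums hide wide differences between replicates, with a median absolute log2 difference of 1.88 in V118M and 1.49 in wild type. Lyz2 was at 38 and 87 in V118M and at 193 and 86 in wild type. Itgam was at 366 and 330 in V118M and at 251 and 428 in wild type. C1qa and C1qc were at 0 in both V118M libraries and in wild-type replicate 2. Ptprc, the pan-leukocyte marker, was at 30 and 0 in V118M and at 165 and 58 in wild type, and was the 1 marker without overlap. The part of macrophages in the Mmp12 scores was not tested. Neutrophil markers summed to 47 and 89 in V118M and to 60 and 90 in wild type, with Mpo at 2 in every library.

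The abundant metalloprotease genes of fibroblasts were nearly level between the groups. Mmp2, the gene for gelatinase A (chromosome 8, 92827291 to 92853420), was at 3670 and 3548 in V118M and at 3458 and 3518 in wild type. Its log2 fold change of 0.05 was below its standard error of 0.14 (limma adjusted p = 0.962). Mmp14, which encodes the membrane-type protease MT1-MMP that activates the precursor of gelatinase A at the cell surface (chromosome 14, 54431612 to 54445364), was at 2266 and 2554 in V118M and at 2234 and 2222 in wild type. The log2 fold change of Mmp14 was 0.11 (SE 0.15, limma adjusted p = 0.951), and 0.02 without V118M replicate 2. Mmp16, the gene for MT3-MMP (chromosome 4, 17852893 to 18119145), was at 312 and 308 in V118M and at 305 and 304 in wild type. All 3 genes were higher without overlap, but by amounts smaller than the standard errors of the fit, which for Mmp16 gave 0.03 (SE 0.15, limma adjusted p = 0.990).

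Epilysin, encoded by Mmp28 (chromosome 11, 83440768 to 83463071), was the most abundant metalloprotease gene that was lower in V118M. It was at 672 and 447 in V118M and at 805 and 716 in wild type, so the groups did not overlap. The fit gave -0.47 on the log2 scale (SE 0.24, limma adjusted p = 0.951), and -0.18 without V118M replicate 2. Mmp11, the gene for stromelysin-3, was at 144 and 134 in V118M and at 182 and 191 in wild type, with a log2 fold change of -0.42 (SE 0.18, limma adjusted p = 0.951). Unlike Mmp28, its V118M replicates were close to each other. Mmp24, for MT5-MMP, was at 10 and 10 in V118M and at 17 and 12 in wild type, also lower without overlap. Mmp25, for the leukocyte membrane-type protease MT6-MMP, was listed at 0 in both V118M libraries and at 4 and 2 in wild type, so no fold is given. The genes Mmp15, Mmp17, Mmp19 and Mmp23, with scores from 11 to 105, and Mmp9, the gene for gelatinase B, at 6 and 4 in V118M and 6 and 1 in wild type, had overlapping groups.

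Of the 18 ADAMTS genes, 12 were lower and 6 higher in V118M, and without V118M replicate 2 the counts turned to 8 lower and 10 higher. Aggrecanases and versicanases, which cleave the large proteoglycans of the matrix, went both ways. Adamts5, which encodes the main aggrecanase of mouse cartilage (chromosome 16, 85856173 to 85901828), was at 514 and 615 in V118M and at 430 and 390 in wild type. Both V118M libraries were above both wild-type libraries, and the log2 fold change was 0.46 (SE 0.17, limma adjusted p = 0.951). It ranged from 0.33 to 0.59 with each library left out. Adamts15, another proteoglycan-cleaving member (chromosome 9, 30899155 to 30922452), was at 12 and 20 in V118M and at 50 and 28 in wild type. Its groups did not overlap, but the wild-type replicates differed widely, and the log2 fold change of -1.22 (SE 0.47, limma adjusted p = 0.951) was -0.81 without wild-type replicate 1. Adamts1, the most abundant gene of the class per kilobase (chromosome 16, 85793827 to 85803113), was at 804 and 624 in V118M and at 855 and 782 in wild type, with overlapping groups and a log2 fold change of -0.21 (SE 0.18, limma adjusted p = 0.951), or -0.02 without V118M replicate 2. The aggrecanase gene Adamts4 was at 14 and 30 in V118M and at 15 and 16 in wild type, a difference carried by V118M replicate 2 alone. Adamts9 was at 54 and 21 in V118M and 42 and 38 in wild type, Adamts20 stayed between 12 and 16, and Adamts8 between 1 and 4.

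All 18 Adamts genes and 21 of the 22 Mmp genes encoded the zinc-binding motif of 3 spaced histidines in the longest reading frame of their longest coding transcript, and none of the 4 Timp genes did. The 33 coding bases are shown for Mmp3, Mmp10 and a pair of aggrecanase-class genes, to let the shared active site be seen, with the histidine codons in capitals (GENCODE M21 transcripts).
Mmp3: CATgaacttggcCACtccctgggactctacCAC
Mmp10: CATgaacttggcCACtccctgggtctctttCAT
Adamts5: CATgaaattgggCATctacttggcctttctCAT
Adamts15: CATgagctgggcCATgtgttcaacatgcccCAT

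Adamts7 and Adamts12 encode proteases that cleave cartilage oligomeric matrix protein. Adamts7 (chromosome 9, 90163069 to 90208071) was at 328 and 206 in V118M and at 444 and 376 in wild type, lower without overlap. On the log2 scale the difference was -0.65 (SE 0.27, limma adjusted p = 0.951), and -0.32 without V118M replicate 2. Adamts12 was at 230 and 85 in V118M and at 204 and 184 in wild type, so the V118M libraries lay on either side of the wild-type ones. Comp, the gene of their substrate, was at 12 and 16 in V118M and at 6 and 3 in wild type.

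The procollagen N-propeptidases remove the amino-terminal propeptide of fibrillar collagens. Adamts2, the most abundant by score (chromosome 11, 50602084 to 50807573), was at 958 and 1002 in V118M and at 932 and 844 in wild type, with a log2 fold change of 0.14 (SE 0.15, limma adjusted p = 0.951). With the length trend removed it was 0.29. Adamts3 was at 156 and 138 in V118M and at 178 and 158 in wild type, lower without overlap by a narrow margin. Adamts14 was at 40 and 26 in V118M and at 40 and 34 in wild type.

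Among the remaining ADAMTS genes, Adamts16 (chromosome 13, 70727802 to 70841811) was at 36 and 24 in V118M and at 50 and 46 in wild type. The groups did not overlap, and the log2 fold change was -0.69 (SE 0.33, limma adjusted p = 0.951), or -0.40 without V118M replicate 2. Adamts10, which acts on fibrillin microfibrils, was at 222 and 191 in V118M and at 167 and 156 in wild type, higher without overlap (log2 difference 0.35, SE 0.19, limma adjusted p = 0.951). Adamts6 was at 260 and 206 in V118M and at 242 and 258 in wild type, and Adamts17 at 93 and 73 in V118M and at 99 and 82 in wild type, both with overlap. Adamts13, which encodes the protease of von Willebrand factor, and Adamts19 were at 8 or below in every library.

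Of the inhibitor genes, Timp1 was higher in V118M without overlap, and the groups overlapped for Timp2 and Timp3. Timp1, an X-linked gene for a secreted inhibitor (chromosome X, 20870166 to 20874735), was at 2386 and 3492 in V118M and at 1832 and 2183 in wild type. The groups did not overlap, and V118M replicate 2 was the highest of the libraries by a wide margin. The log2 fold change was 0.53 (SE 0.23, limma adjusted p = 0.951). It was 0.25 without V118M replicate 2, 0.80 without V118M replicate 1 and 0.33 with the length trend removed, and Timp1 has the shortest transcript of the members at 883 bases. Timp2, whose product also takes part in the activation of gelatinase A by MT1-MMP (chromosome 11, 118301069 to 118355740), was at 6695 and 5665 in V118M and at 6695 and 6484 in wild type. Its log2 fold change of -0.10 was below its standard error of 0.16 (limma adjusted p = 0.951). Without V118M replicate 2 the value was 0.02. Timp3, whose product is bound to the matrix and also inhibits ADAMTS aggrecanases (chromosome 10, 86300372 to 86349506), was at 17614 and 13666 in V118M and at 17614 and 17614 in wild type. The shared value of 17614 is a tie made by the normalization, so small differences cannot be seen there. The log2 fold change was -0.18 (SE 0.19, limma adjusted p = 0.951), and without V118M replicate 2 the scores were equal. Timp4 (chromosome 6, 115241892 to 115252205) was at 6 and 6 in V118M and listed at 0 in both wild-type libraries, near the bottom of the scale, so no fold is given (limma adjusted p = 0.827).

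**Figure D3:**
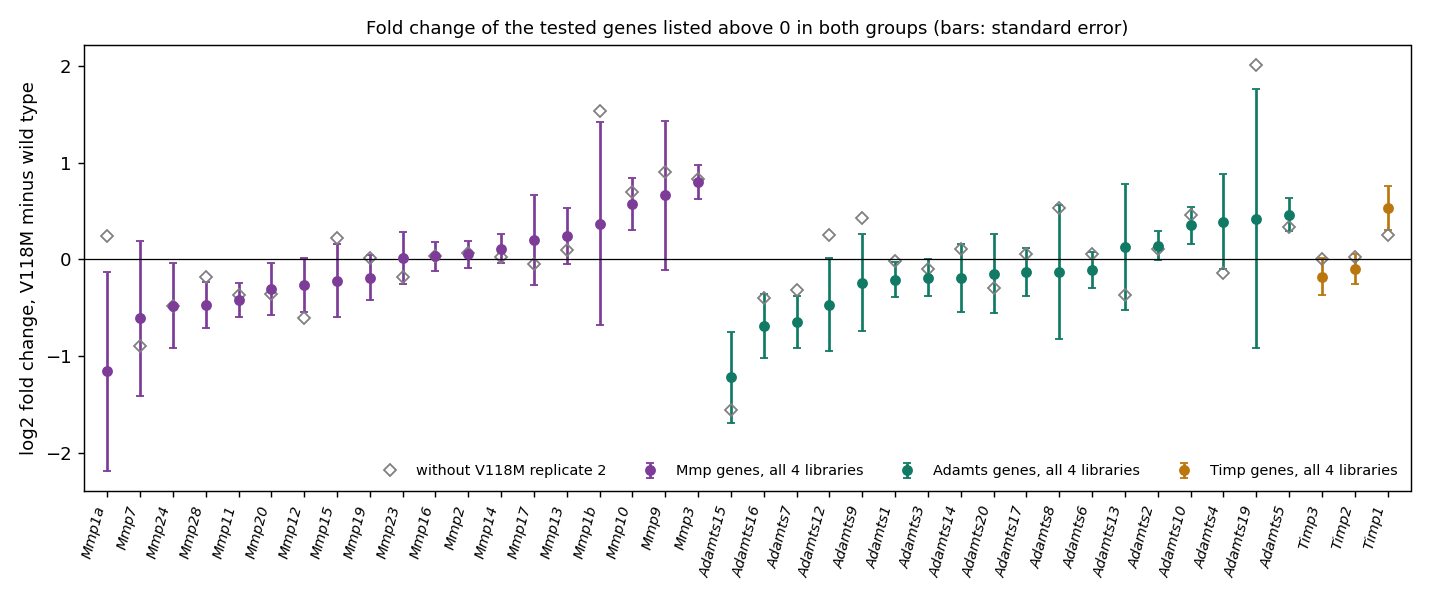
Log2 fold change, V118M minus wild type, of the 40 tested genes listed above 0 in both groups, ordered by family and value, with bars for the standard error. Grey diamonds leave out V118M replicate 2; Mmp3 stays near 0.80 (0.83 without that library), while Adamts7 moves to -0.32 and Timp1 to 0.25.

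V118M replicate 2 set much of the spread among the members. The absolute log2 difference between the V118M replicates had a median of 0.37 over the tested members, against 0.17 between the wild-type replicates. Over all genes tested these medians were 0.44 and 0.17. V118M replicate 2 had the lowest score of the 4 libraries in 17 members, 10 of them Adamts genes, and the highest in 9. Over all 19547 genes tested, it had the lowest score in 6400 and the highest in 7460. Relative to the mean of the other libraries it was lowest for Adamts12 (-1.26 on the log2 scale, transcript of 8.58 kilobases) and Adamts9 (-1.04, 8.02 kilobases) among members with a mean of at least 10. Adamts5, with the longest transcript at 10.8 kilobases, went against this, at 0.48. Spearman's rho between this deviation and transcript length was -0.36 over 33 members, given as a description, since these genes share the library.

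**Figure D4:**
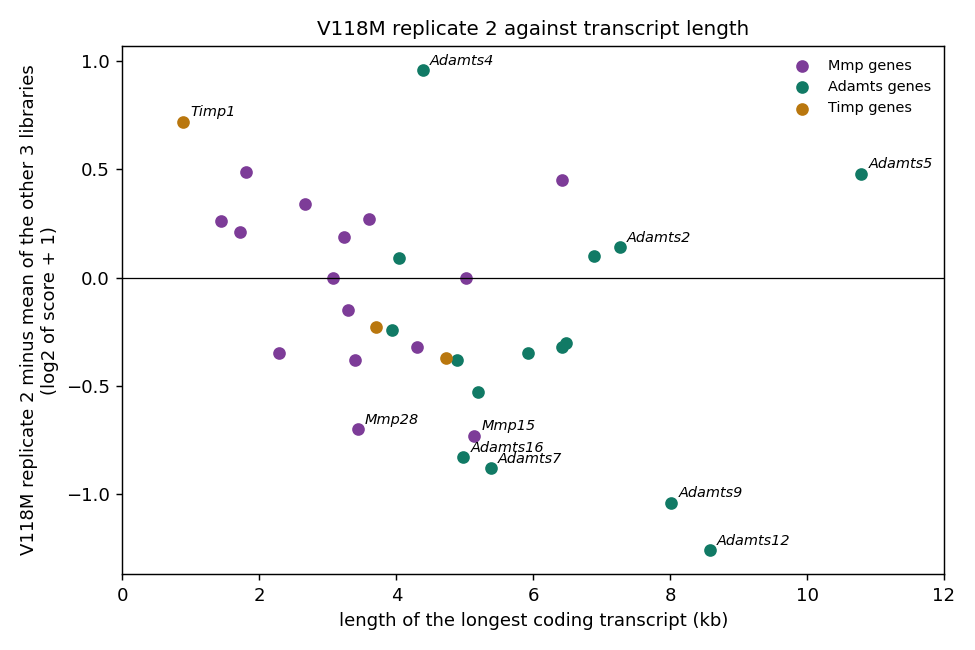
Deviation of V118M replicate 2 from the mean of the other 3 libraries (log2 of score + 1) against the length of the longest coding transcript, for the 33 members with a mean score of at least 10, coloured by family. Adamts9 and Adamts12 lie lowest and Timp1 is high at the short end, while Adamts5 lies above 0 at the long end.

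The upstream activators, regulators and substrates of these proteases were read from 7 lists, whose counts are to be set beside the 4.01% of all genes tested at an unadjusted p under 0.05 and the 28.0% without overlap. In the list of 14 inducing factors and cytokines, 4 had an unadjusted p under 0.05, against 4.01% of all genes, and 9 had groups that did not overlap, 3 higher and 6 lower, against 28.0% of all genes. The AP-1 subunit gene Fosb was at 42 and 28 in V118M and at 90 and 93 in wild type, a log2 fold change of -1.39 (SE 0.30, limma adjusted p = 0.936). Jun was also lower without overlap, at 1632 and 1590 in V118M and at 1782 and 1710 in wild type. Fosl2 was lower too, at 3081 and 2345 in V118M and at 3369 and 3398 in wild type. Fos, Fosl1, Junb and Jund overlapped. The cytokine gene Il6 was at 26 and 36 in V118M and at 13 and 12 in wild type, and Il1a at 140 and 122 in V118M and at 106 and 95 in wild type. Tnf was at 2 and 3 in V118M and listed at 0 in wild type. Il1b, another cytokine of the list, was at 0 and 3 in V118M and at 3 and 2 in wild type, with overlap. Ets1, Ets2 and Runx2 were lower without overlap, and no gene of the list passed the adjusted threshold.

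Among 11 regulators and activators, 3 were higher and 8 lower, with a median log2 fold change of -0.11. The testican genes Spock1 and Spock2, for secreted proteoglycans, had an unadjusted p under 0.05. Spock1 was at 18 and 14 in V118M and at 51 and 42 in wild type, a log2 fold change of -1.49 (SE 0.34, limma adjusted p = 0.951). Spock2 was at 246 and 140 in V118M and at 306 and 344 in wild type. Reck, a membrane-anchored inhibitor of matrix metalloproteases, was at 558 and 468 in V118M and at 576 and 518 in wild type, with overlap. The endocytic receptor gene Lrp1, whose product clears proteases and inhibitors, was at 16292 and 6482 in V118M and at 22700 and 13637 in wild type, with overlap and with replicates far apart in both groups.

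The plasminogen activation list had 7 tested genes, 4 higher and 3 lower, with 0 at an unadjusted p under 0.05. The serpin genes Serpine2 and Serpinb2, which encode inhibitors of plasminogen activators, were higher without overlap. Serpine2 was at 1805 and 2063 in V118M and at 1489 and 1512 in wild type, and Serpinb2 at 912 and 1002 in V118M and at 797 and 754 in wild type. The urokinase receptor gene Plaur was at 764 and 1077 in V118M and at 1054 and 1019 in wild type, with overlap. The 8 ADAM sheddase genes overlapped without exception. The named ones were Adam10, at 2528 and 2032 in V118M and 2408 and 2464 in wild type, Adam9, at 970 and 797 in V118M and 986 and 948 in wild type, and Adam33, at 23 and 17 in V118M and 18 and 16 in wild type.

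The ADAMTS-like genes, whose products resemble ADAMTS proteins but lack the protease domain, were lower in 4 and higher in 2 of 6, with a median of -0.33. Adamtsl4 was at 703 and 513 in V118M and at 791 and 888 in wild type, lower without overlap, and Adamtsl3 at 26 and 30 in V118M and at 18 and 16 in wild type, higher without overlap. Adamtsl1 overlapped, at 75 and 44 in V118M and at 88 and 73 in wild type. Procollagen processing and crosslinking genes were split, with 4 higher and 5 lower of 9 tested and a median of -0.04. Groups did not overlap in 5 of them, 2 higher and 3 lower, against 28.0% of all genes tested. The 2 higher were Loxl1, at 1248 and 1229 in V118M and 1198 and 1090 in wild type, and Loxl3. The crosslinking enzyme gene Loxl2 was at 3458 and 2938 in V118M and at 4292 and 4140 in wild type, and the tolloid protease gene Tll1 at 663 and 617 in V118M and at 702 and 739 in wild type, both lower without overlap. Loxl4 overlapped, at 2052 and 1086 in V118M and at 2330 and 1834 in wild type.

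Of 10 tested proteoglycan and glycoprotein substrates, 7 were higher and 2 lower, with a median of 0.19. Those higher without overlap were Comp, Hapln1, Bgn and Lum, and Comp alone had an unadjusted p under 0.05, against 28.0% of all genes without overlap and 4.01% at that p. Lum, for the collagen-binding proteoglycan lumican, was at 1356 and 1908 in V118M and at 1254 and 1248 in wild type, a log2 fold change of 0.36 (SE 0.20, limma adjusted p = 0.951). Dcn, for decorin, was at 11822 and 17630 in V118M and at 9022 and 11822 in wild type, with V118M replicate 2 above the rest. Vcan, for versican, was at 3997 and 2168 in V118M and at 3498 and 2374 in wild type, with overlap, and Acan, for aggrecan, was at 8 or below in every library. For Vcan and Acan, the genes of versican and aggrecan, the scores thus overlapped between the groups.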

How the data were processed

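The deposited table gives whole-number scores per gene for 4 libraries. Per the submitters' processing notes, RSEM, Bowtie2, DESeq2 and FastQC were used with mm10, and no roles are stated. How the authors normalized the scores is not given. Sorted columns were equal at 76.7% of ranks and 10 genes shared the highest score, 61186, in each library, as after quantile normalization. Depth is therefore unknown, and abundant genes can be tied. Scores were tested with limma 3.58.1 in R 4.3.3 as log2(score + 1), with the trend and robust options and group as the only term. The filter (a score of 1 or more in 2 or more libraries) left 19547 genes. Two-sided p-values were adjusted by Benjamini-Hochberg over these. The fit was also run on simulated data, which had no outlying library and no trend on transcript length. That run therefore does not bear on these features of the libraries. The log2(score + 1) scale understates changes of low genes. Coordinates and lengths are from GENCODE M21 (GRCm38). Of the gene IDs, 22304 had a length, taken as the longest coding transcript where the gene had one. Fold changes with tests were given for members with an unadjusted p under 0.05, for those without overlap and with an absolute log2 fold change of at least 0.5 and a mean of at least 10, for the 4 highest Mmp and Adamts means and for the Timp genes. Mmp11 and Adamts10 were added after their values were seen. Of each list, up to 3 genes with the smallest p were named; the others in the text were chosen after their values were seen. Members and lists were chosen with earlier results of these data known. Alternatives were pseudocounts, filters, a replicate block, removal of a length trend, ordinary empirical Bayes and leaving out each library. Counts by direction without V118M replicate 2, and family medians without genes listed at 0 in a group, were added after seeing the data.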

Additional observations from a re-analysis of the deposited data

How the results depend on the processing

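The 15 fold changes chosen by the naming rule kept their direction in 178 of 180 values under 12 alternatives. The exceptions were both without V118M replicate 2, where Timp2 was at 0.02 and the Timp3 scores were equal. Filters, the replicate block and ordinary empirical Bayes leave each fold change as it is. Groups without overlap, as most of these genes had, cannot change direction when a library is left out. The count was thus largely fixed in advance. Members at an unadjusted p under 0.05 numbered 5, against 2 under the stricter filter, 8 with the replicate block, 9 with the replicate block and the length trend removed, and 1 to 11 with each library left out. Over all genes tested such calls were 784, against 1204 with the block, 1294 with the block and the length trend removed, and 221 to 5096 with each library left out. Past the adjusted threshold the block called 3 genes, none of them a member, and 0 were called with each library left out. The correlation of replicate 1 deviations between the groups was 0.016, and nothing in the labels ties the numbers to a shared culture. The median over the members was -0.28 to 0.02 with each library left out. The Mmp median was -0.17 to 0.02 with each library left out, 0.02 without a filter, 0.01 under the stricter filter and -0.13 with the length trend removed, with or without the block. The Adamts median was -0.30 to 0.05 with each library left out. The Timp median was -0.22 to 0.27 with each library left out, -0.10 under the stricter filter, which Timp4 failed, and 0.13 with the length trend removed, with or without the block. The filter was applied anew in each fit, so Timp4 also dropped out whenever a V118M library was left out. Groups did not overlap in 21 to 35 members with each library left out, chosen after seeing the data, where fewer libraries make separation easier. The share over all genes under these settings is not given, so these counts are not a result about the members. Mmp3 had an unadjusted p under 0.05 without any 1 library except wild-type replicate 2 (limma unadjusted p = 0.0785). The cause of the other shifts was not tested. In fits without a library the lone library of a group is assumed to vary like the other group.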
